A study of Mus musculus with 16 samples.

Results

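Newly made RNA of 6 genes of the fibroblast growth factor (FGF) and ERK pathway was followed in mouse embryonic stem cells labelled as Mettl14 CKO or Control. They were chosen by a list of gene identifiers, 6 of the 54446 mouse identifiers counted in every library: Fgf4 (ENSMUSG00000050917.5), Spry2 (ENSMUSG00000022114.5), Spry4 (ENSMUSG00000024427.6), Dusp6 (ENSMUSG00000019960.8), Etv4 (ENSMUSG00000017724.14) and Etv5 (ENSMUSG00000013089.15). METTL14 forms, with METTL3, the enzyme that methylates adenosines in messenger RNA, and the study asked how its loss changes transcription. The CKO cells are a Mettl14 knockout per the series' design text. Both genotypes are C57BL/6 cells, and all groups grew with 15% serum, 1000 U/ml of LIF, 3 µM CHIR99021, an inhibitor of GSK3, and 1 µM PD0325901, an inhibitor of MEK. Neither the agent that deletes Mettl14 nor the number of clones is given in the sources used here. At 48 h after seeding, cells received 0.5 mM 5-ethynyl uridine (EU), an analogue of uridine that RNA polymerases incorporate, for 10, 20, 30 or 60 min. Labelled RNA was captured by click chemistry, and 0.01 µl of ERCC RNA, a synthetic spike-in, was added before library construction. Each of the 8 groups (CKO and Control at each of 4 EU times) had 2 libraries, 16 in all. No label places the 2 libraries of a group in separate cultures, so the p-values may reflect technical spread between samples alone.

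FGF4 is the main FGF that embryonic stem cells secrete. It binds FGF receptors at the cell surface, which act through RAS, RAF and MEK to activate the kinase ERK. Active ERK turns on genes whose products feed back on the pathway: SPRY2 and SPRY4 (Sprouty proteins) inhibit signalling between receptor and RAF, and DUSP6 is a phosphatase that removes the activating phosphates from ERK in the cytoplasm. ETV4 and ETV5 are transcription factors of the ETS family that carry FGF responses to other genes. MEK, which PD0325901 inhibits, lies upstream of these feedback genes in every group.

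The 2 CKO libraries at 30 min of EU stood apart. They held 5109162 and 5188643 mouse counts, against 11902184 to 28502750 in the other 14 libraries, and had counts at 30583 to 31826 identifiers, against 21173 to 26857. Results that rest on them are given with and without the 30 min libraries. The 6 genes together held 4359 to 43372 counts per library, and replicates differed beyond sampling noise in all 8 groups. The tables used here pair the identifiers with no symbols beyond these 6, so the level of Mettl14, cell type markers and the other genes of the pathway were not analysed here.

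Fgf4, which encodes the ligand, was lower in CKO cells at every EU time relative to the bulk of captured RNA, though not at 10 min on the spike-in scale. After 10 min of EU it stood at 217 and 214 CPM (counts scaled by library size and the TMM method) in the CKO libraries, against 268 and 322 CPM in the Control libraries. At 20 min the levels were 277 and 266 CPM in CKO, against 386 and 388 CPM in Control. At 30 min they were 156 and 167 CPM in CKO and 488 and 511 CPM in Control. Bulk RNA cannot tell fewer cells that make a transcript from less of it per cell. The gap was widest at 30 min, in the CKO libraries that stood apart. After 60 min Fgf4 reached 406 and 477 CPM in CKO libraries, against 662 and 659 CPM in Control libraries. Both CKO libraries lay below both Control libraries at each of the 4 EU times. The share of all identifiers without overlap between genotypes was not computed, so here and below a lack of overlap is a description only.

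Fgf4 fell in the CKO cells, with a log2 fold change of −0.79 (SE 0.134) over all EU times (edgeR's quasi-likelihood test, Benjamini-Hochberg adjusted p = 0.000942). The log2 fold change was −0.45 (SE 0.0900) at 10 min, with an adjusted p of 0.00105, and −0.51 (SE 0.0893) at 20 min, with an adjusted p of 0.00186. It was −1.63 (SE 0.0931) at 30 min, with an adjusted p of 2.57e-12, and −0.58 (SE 0.0888) at 60 min, with an adjusted p of 0.000247. Expressed as ratios of group means, CKO levels of Fgf4 were 0.732, 0.701, 0.323 and 0.669 of those of Control at 10, 20, 30 and 60 min. Without the 30 min libraries the overall difference was −0.53 (SE 0.0636, adjusted p = 1.75e-05). The call at 10 min was lost without the second Control 10 min library (log2 fold change −0.31, adjusted p = 0.0703), while leaving out any other single library kept all 5 Fgf4 calls. With libraries scaled by their ERCC counts instead, Fgf4 was 0.87 higher in CKO cells at 10 min (log2, adjusted p = 0.00248) and did not pass the threshold over all EU times (−0.36, adjusted p = 0.384), at 20 min (−0.11, adjusted p = 0.951) or at 60 min (−0.53, adjusted p = 1).

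**Figure D1:**
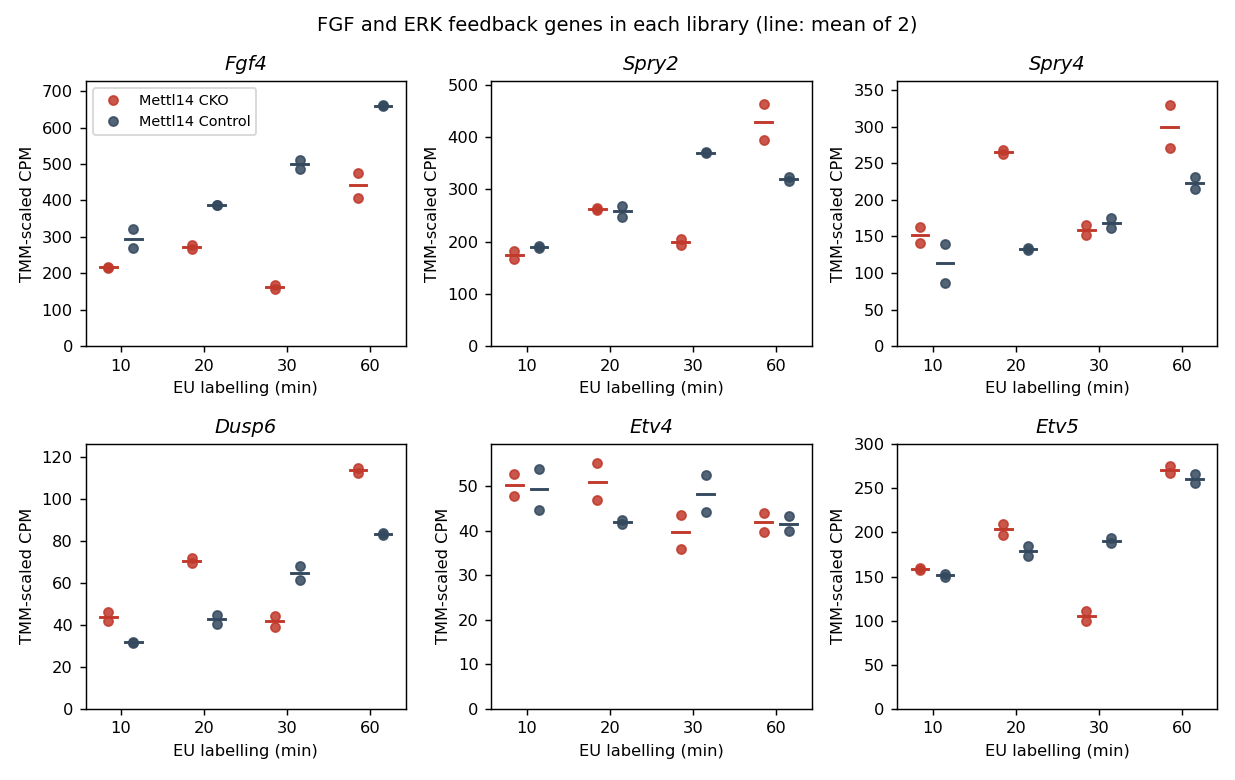
TMM-scaled CPM (y axis, from 0) of the 6 genes by EU labelling time in minutes (x axis), with a point per library, CKO in red to the left of Control in dark blue, and a line at the mean of the 2 libraries. On this scale Fgf4 was lower in CKO at all 4 times (not so at 10 min per ERCC count), between 156 and 477 CPM in CKO and between 268 and 662 CPM in Control, whereas Spry4 and Dusp6 were higher in CKO at 10, 20 and 60 min.

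The start regions of Fgf4, Spry2 and Dusp6 are shown because these 3 genes, a ligand and 2 of its feedback inhibitors, differed between genotypes in unlike ways. Fgf4 spans chr7:144861386-144865245 on GRCm38.p6, Spry2 chr14:105891947-105896819 and Dusp6 chr10:99263231-99267489. RefSeq windows of the same build are used, each of which holds 250 bases before and 50 bases after the gene's start, read 5′ to 3′ on the gene's strand. The windows are chr7:144861136-144861435 (plus strand) for Fgf4, chr14:105896770-105897069 (minus strand) for Spry2 and chr10:99262981-99263280 (plus strand) for Dusp6. Capitals mark matches on either strand to 3 motifs: CGGAA, part of the sequence bound by ETS factors (TTCCG on the other strand), GGGCGG, the GC box (CCGCCC), and CCAAT, the CCAAT box (ATTGG).
Fgf4: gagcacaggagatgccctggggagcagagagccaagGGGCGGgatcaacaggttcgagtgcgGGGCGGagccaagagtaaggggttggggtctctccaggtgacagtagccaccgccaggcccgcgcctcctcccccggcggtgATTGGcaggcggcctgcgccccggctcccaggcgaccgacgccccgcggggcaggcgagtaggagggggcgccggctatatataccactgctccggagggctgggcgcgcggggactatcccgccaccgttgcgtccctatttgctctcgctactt
Spry2: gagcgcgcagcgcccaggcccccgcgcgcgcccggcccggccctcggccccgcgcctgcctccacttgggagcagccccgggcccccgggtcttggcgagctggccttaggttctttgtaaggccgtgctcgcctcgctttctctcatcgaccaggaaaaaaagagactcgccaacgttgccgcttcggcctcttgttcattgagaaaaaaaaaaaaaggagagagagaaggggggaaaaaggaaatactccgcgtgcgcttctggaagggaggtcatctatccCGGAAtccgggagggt
Dusp6: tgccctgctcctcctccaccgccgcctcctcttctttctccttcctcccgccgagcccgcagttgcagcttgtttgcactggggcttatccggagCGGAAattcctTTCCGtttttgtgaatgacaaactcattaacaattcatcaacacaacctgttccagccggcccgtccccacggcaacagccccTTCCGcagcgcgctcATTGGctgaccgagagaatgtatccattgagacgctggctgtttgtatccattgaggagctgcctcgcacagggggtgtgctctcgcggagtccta

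The Dusp6 window held 3 matches to CGGAA and 1 to CCAAT, the Spry2 window held 1 match to CGGAA, and the Fgf4 window held 2 GC boxes and 1 CCAAT match with none to CGGAA. No matches overlapped each other. Among 32851 RefSeq promoter windows of the same length, 29.9% held CGGAA, 35.7% GGGCGG and 37.4% CCAAT. The share of G and C was 69.7% in the Fgf4 window, 62.7% in the Spry2 window and 57.3% in the Dusp6 window. These matches describe letters in the windows and were not tested as binding sites.

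Spry2, a Sprouty inhibitor, was called lower in CKO cells at 30 min, in the libraries that stood apart, and higher at 60 min, relative to the bulk of captured RNA. At 10 min it stood at 168 and 182 CPM in CKO libraries, against 191 and 189 CPM in Control libraries. At 20 min it stood at 265 and 259.8 CPM in CKO and at 247 and 269 CPM in Control, where the genotypes overlapped. At 30 min Spry2 had 205 and 195 CPM in CKO, against 371 CPM in each Control library. The CKO libraries were thus below those of Control at 10 and 30 min and within their range at 20 min. After 60 min the order was the opposite, with 464 and 396 CPM in CKO libraries, against 324 and 317 CPM in Control libraries. Spry2 was higher in CKO cells at 60 min by a log2 fold change of 0.42 (SE 0.0868, edgeR adjusted p = 0.00535) and lower at 30 min, with a log2 fold change of −0.89 (SE 0.0892, adjusted p = 1.74e-08). At 10 min the difference of −0.12 (SE 0.0883, adjusted p = 0.445) and at 20 min that of 0.03 (SE 0.0872, adjusted p = 1) did not pass the threshold, and with ERCC scaling the 10 min difference was 1.21 (adjusted p = 5.94e-05). Spry2 differed over all EU times by −0.14 (SE 0.131, adjusted p = 0.526), and without the 30 min libraries by 0.10 (SE 0.0834, adjusted p = 0.505). The call at 60 min was lost without the first CKO 60 min library (0.27, adjusted p = 0.525), the first Control 60 min library (0.40, adjusted p = 0.201) or the second (0.36, adjusted p = 0.283).

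Spry4, the second Sprouty gene (chr18:38586247-38601347), had overlapping levels in both genotypes at 30 min and higher levels in CKO libraries at the other EU times. After 10 min it stood at 163 and 141 CPM in CKO libraries, against 86.3 and 140.0 CPM in Control libraries. At 20 min the levels were 268 and 263 CPM in CKO and 134 and 132 CPM in Control. At 10 min the second Control library lay just under the lower CKO library, and at 20 min the genotypes were far apart. At 30 min Spry4 had 152 and 165 CPM in CKO and 162 and 174 CPM in Control, with overlap. At 60 min it had 270.5 and 329.6 CPM in CKO, against 215 and 231 CPM in Control. Spry4 rose in CKO cells at 20 min by a log2 fold change of 1.00 (SE 0.142, edgeR adjusted p = 0.000198). With TMM scaling this was the widest increase of the 6 genes at any EU time. Differences of 0.42 at 10 min (SE 0.143, adjusted p = 0.0571), −0.08 at 30 min (SE 0.144, adjusted p = 0.641) and 0.43 at 60 min (SE 0.140, adjusted p = 0.131) did not pass the threshold, and the 30 min value was 0.20 with library totals and 0.19 with DESeq2.

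Over all EU times Spry4 was higher in CKO cells by 0.44 (SE 0.128, adjusted p = 0.0310), and without the 30 min libraries by 0.60 (SE 0.111, adjusted p = 0.00125). The overall call was lost when 1 library was left out, either of the CKO 20 min pair (adjusted p = 0.0515 and 0.0506), the first Control 10 min library (0.0565) or either of the Control 20 min pair (0.0619 and 0.0623). The Control 10 min libraries decided the value at that time: without the second of them the log2 fold change was 0.81 (adjusted p = 0.000119), and it was as low as 0.10 in the lowest of the 16 fits that each left out 1 library. At 10 min Spry4 also passed without 1 of the CKO 30 min libraries (0.40 each, adjusted p = 0.000500 without the first and 0.000678 without the second). At 60 min the log2 fold change ranged over 0.22 to 0.53 when single libraries were left out. It passed when either of the CKO 30 min pair was left out (adjusted p = 0.00254 for the first, 0.00224 for the second) or either of the Control 10 min pair (0.0467 for the first, 0.0190 for the second).

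Dusp6, which encodes the ERK phosphatase, followed a course like that of Spry4, at higher CKO levels at 10, 20 and 60 min. At 10 min it stood at 46.0 and 41.7 CPM in CKO libraries, against 31.4 and 32.0 CPM in Control libraries. At 20 min it had 72.0 and 69.5 CPM in CKO and 45.0 and 40.5 CPM in Control. At 30 min it had 39.2 and 44.2 CPM in CKO and 68.4 and 61.6 CPM in Control. Only at 30 min did the CKO libraries lie below those of Control. At 60 min Dusp6 reached 115 and 113 CPM in CKO, against 83.8 and 82.8 CPM in Control. No EU time showed overlap between the genotypes, which is a description without a share over all identifiers beside it. Dusp6 rose in CKO cells by log2 fold changes of 0.47 at 10 min (SE 0.132, edgeR adjusted p = 0.0188), 0.73 at 20 min (SE 0.128, adjusted p = 0.00200) and 0.45 at 60 min (SE 0.125, adjusted p = 0.04996). At 30 min it fell by 0.64 on the log2 scale (SE 0.134, adjusted p = 0.000537). Over all EU times the difference of 0.27 (SE 0.140, adjusted p = 0.214) did not pass, whereas without the 30 min libraries it was 0.54 (SE 0.0788, adjusted p = 0.000149).

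The calls of Dusp6 at 10, 20 and 60 min were each lost in some fits that left out 1 library. The filter by group and the scaling were rerun in each such fit, and a group of 1 library loosens that filter. The log2 fold change without either Control 20 min library was 0.44 at 10 min and 0.41 at 60 min. With no filter and all libraries it was 0.44 at 10 min, where the call was kept (edgeR adjusted p = 0.0476). At 60 min it was 0.40 in that fit, where the call was lost (edgeR adjusted p = 0.175). Whether the library left out, the filter or the scaling decided a lost call was not tested. The call at 10 min was lost in 11 of the 16 fits that each left out 1 library, with adjusted p of 0.0503 to 0.163, and was kept without the second CKO 10 min library, either CKO 30 min library or either CKO 60 min library. The call at 60 min was lost in 14 of 16, with adjusted p of 0.05004 to 0.804, and was kept only without the first or the second CKO 30 min library. The call at 20 min was lost without the first CKO 20 min library (0.70, adjusted p = 0.0620) or the second Control 20 min library (0.66, adjusted p = 0.147). Dusp6 overlaps 1 other RefSeq gene, the long non-coding RNA Gm34921. The sources used here give no strand setting for the counting, and reads of the pair may not have been separated.

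The 2 ETS factor genes differed little between genotypes outside the 30 min libraries, relative to the bulk of captured RNA. With ERCC scaling both were called higher in CKO cells at 10 min, by log2 fold changes of 1.34 for Etv4 and 1.39 for Etv5. The median of abundant identifiers, those whose mean log2 CPM reached 5, was 1.32 there. Etv4 (chr11:101769747-101785310) had 52.7 and 47.7 CPM in CKO libraries at 10 min, against 44.8 and 53.9 CPM in Control libraries. At 20 min it had 55.2 and 46.9 CPM in CKO and 42.4 and 41.6 CPM in Control. The genotypes overlapped at 10 min, and both CKO libraries lay above both Control libraries at 20 min. At 30 min it had 43.5 and 35.9 CPM in CKO and 52.5 and 44.2 CPM in Control, and at 60 min 44.0 and 39.8 CPM in CKO and 43.2 and 39.9 CPM in Control. The log2 fold changes of Etv4 were 0.02 (SE 0.158), 0.28 (SE 0.156), −0.28 (SE 0.163) and 0.01 (SE 0.155) at 10, 20, 30 and 60 min, with adjusted p of 1, 0.819, 0.153 and 1, so that none passed the threshold. Over all EU times the difference was 0.01 (SE 0.102, adjusted p = 0.956), and without the 30 min libraries 0.09 (SE 0.0913, adjusted p = 0.581).

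Etv5 (chr16:22381313-22439570) had 160.2 and 158 CPM in CKO libraries at 10 min, against 153 and 150.0 CPM in Control libraries. At 20 min it had 209.8 and 197 CPM in CKO and 185 and 174 CPM in Control. At 30 min the levels were 99.1 and 111 CPM in CKO and 188 and 193 CPM in Control. The CKO libraries lay narrowly above those of Control at 10 and 20 min and far below them at 30 min. At 60 min Etv5 had 267 and 275 CPM in CKO, against 256 and 266 CPM in Control. At 30 min Etv5 fell by 0.86 on the log2 scale in CKO cells (SE 0.0915, edgeR adjusted p = 4.57e-08). The differences of 0.07 at 10 min (SE 0.0888, adjusted p = 0.715), 0.18 at 20 min (SE 0.0878, adjusted p = 0.709) and 0.06 at 60 min (SE 0.0871, adjusted p = 1) did not pass. Etv5 differed over all EU times by −0.13 (SE 0.119, adjusted p = 0.497), and without the 30 min libraries by 0.09 (SE 0.0603, adjusted p = 0.387).

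**Figure D2:**
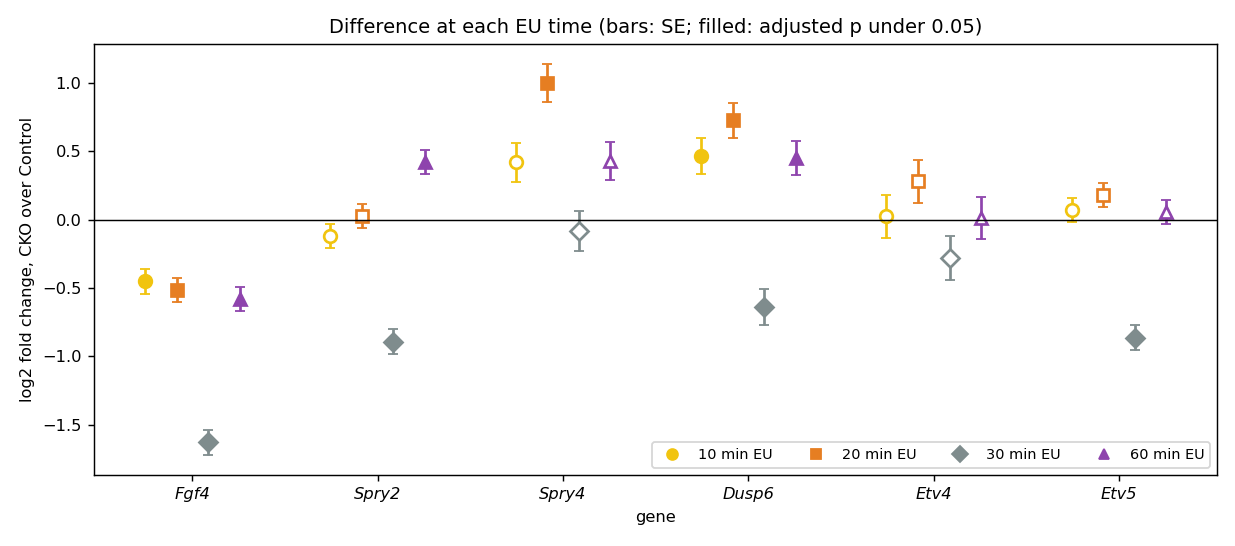
Log2 fold change of CKO over Control (y axis) for each of the 6 genes (x axis) at 10, 20, 30 and 60 min of EU, with bars for the standard error and filled symbols where the adjusted p was under 0.05. The 30 min values (grey diamonds) lie below those of the other times in every gene, reaching −1.63 for Fgf4, and Spry4 at 20 min is the highest at 1.00.

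Read against all identifiers tested, the counts of called genes were as follows. Over all EU times 2 of the 6 genes were called, Spry4 higher and Fgf4 lower, where 11.5% of 27488 identifiers were called (6.77% higher, 4.7% lower). The median log2 fold change was −0.06 over the 6 genes and 0.19 over all identifiers (0.0212 over all identifiers with a stricter filter, 1 CPM in 8 libraries). At 10 min 2 of 6 were called, Dusp6 higher and Fgf4 lower, against 11.8% of all identifiers (6.45% higher, 5.36% lower). At 20 min 3 of 6 were called, Spry4 and Dusp6 higher and Fgf4 lower, against 0.96% of all identifiers (0.706% higher, 0.255% lower). That was the EU time with the fewest calls among all identifiers. At 60 min 3 of 6 were called, Spry2 and Dusp6 higher and Fgf4 lower, against 2.63% (1.79% higher, 0.84% lower). The median log2 fold change of the 6 genes was 0.05 at 10 min, 0.23 at 20 min and 0.24 at 60 min, and that of all identifiers was 0 at each of these times. These shares were larger in the fit without the 30 min libraries. There 22.8% of 20204 identifiers were called at 10 min, 1.9% at 20 min and 4.93% at 60 min. Of the 6 genes 2, 3 and 3 were called in that fit at these times. The medians over all identifiers were −0.03, −0.01 and 0.004. Without the 30 min libraries 3 of 6 were called over the other EU times, Spry4 and Dusp6 higher and Fgf4 lower, against 12.6% of 20204 identifiers (6.55% higher, 6.04% lower).

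At 30 min 4 of 6 genes were called, all lower (Fgf4, Spry2, Dusp6 and Etv5), against 48.5% of all identifiers (29.4% higher, 19.1% lower). The median log2 fold change there was −0.75 over the 6 genes and 0.61 over all identifiers. An identifier could pass the filter through the CKO 30 min libraries alone: 27488 were tested with the 30 min libraries and 20204 without. In a fit with a stricter filter (1 CPM in 8 libraries) the median over all identifiers at 30 min was 0.0634. Abundant identifiers, those whose mean log2 CPM reached 5, a set chosen after seeing the data that holds all 6 genes, behaved otherwise: 68.5% of 5721 were called lower and 3.11% higher, with a median of −0.55. The share of 4 in 6 called lower is thus near that of abundant identifiers. Relative to that median of −0.55, Dusp6 (−0.64) lay slightly below, Spry2 (−0.89) and Etv5 (−0.86) further below and Fgf4 (−1.63) far below. Spry4 (−0.08) and Etv4 (−0.28) lay above it. Among abundant identifiers 34.7% were called at 10 min, 3.99% at 20 min, 10.9% at 60 min and 22.3% over all EU times.

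The difference between genotypes changed with EU time in 5 of the 6 genes when all libraries were used, by a test of the difference itself, against 22.7% of all identifiers and 64.2% of the abundant ones. The adjusted p was 2.73e-07 for Fgf4, 2.14e-07 for Spry2, 0.00248 for Spry4, 1.65e-05 for Dusp6 and 1.83e-06 for Etv5, while Etv4 did not pass (0.273). Without the 30 min libraries Spry2 alone passed, with an adjusted p of 0.0201, against 5.58% of 20204 identifiers and 15.7% of abundant ones, a share near 1 in 6. The others then had adjusted p of 0.889 for Fgf4, 0.146 for Spry4, 0.421 for Dusp6, 0.600 for Etv4 and 0.670 for Etv5. In that fit the log2 fold changes of Spry2 were −0.16, 0.02 and 0.42 at 10, 20 and 60 min, whereas those of Fgf4 were −0.49, −0.52 and −0.58.

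All but Etv4 took a larger share of the captured RNA at 60 min of EU than at 10 min, in both genotypes. The rise did not hold at each step between. In CKO cells Fgf4, Spry2, Spry4, Dusp6 and Etv5 were each lower at 30 min than at 20 min. Group means of Fgf4, Dusp6 and Etv5 at 30 min were there also below those at 10 min. In Control cells Spry2 was lower at 60 min than at 30 min. Between 10 and 60 min of EU, 5 of the 6 genes rose in CKO cells, against 8.96% of all identifiers called higher, and the same 5 rose in Control cells, against 6.88%. The log2 changes in CKO cells were 1.03 for Fgf4 (SE 0.0903), 1.30 for Spry2 (SE 0.0889), 0.98 for Spry4 (SE 0.142), 1.38 for Dusp6 (SE 0.130) and 0.77 for Etv5 (SE 0.0886), with adjusted p of at most 1.48e-05 (edgeR). In Control cells they were 1.16 (SE 0.0900), 0.75 (SE 0.0878), 0.98 (SE 0.143), 1.39 (SE 0.131) and 0.78 (SE 0.0884) for the same genes in the same order, with adjusted p of at most 2.90e-05. Etv4 differed by −0.26 in CKO cells (SE 0.157, adjusted p = 0.322) and by −0.25 in Control cells (SE 0.156, adjusted p = 0.394). The median over all identifiers was 0 in each genotype, and over abundant identifiers it was 0.13 in CKO and 0.09 in Control. Of the abundant identifiers 30.6% were called higher in CKO and 24.2% in Control.

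The order of the 8 groups differed between the genes. For Fgf4 it ran, low to high, CKO 30 min, CKO 10 min, CKO 20 min, Control 10 min, Control 20 min, CKO 60 min, Control 30 min and Control 60 min, and only CKO 20 min and Control 10 min overlapped as neighbours. For Spry2 the lowest group was CKO 10 min and the highest CKO 60 min, with Control 30 min second highest, and only the 20 min groups of both genotypes overlapped as neighbours. For Dusp6 the lowest group was Control 10 min and the highest CKO 60 min, and CKO 30 min, Control 20 min and CKO 10 min overlapped in the low range. Spry4 ran between the same extremes, with Control 10 min overlapping Control 20 min, and CKO 10 min, CKO 30 min and Control 30 min overlapping in turn. In Etv5 no neighbouring groups overlapped, with CKO 30 min lowest and CKO 60 min highest. In Etv4 all neighbours overlapped but Control 20 min and Control 30 min.

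Counts per 1000 ERCC counts give the genes on a scale set by the spike-in. Since the spike-in was added after capture, differences in cell number, recovery or capture yield enter that scale beside the amount of labelled RNA. At 10 min Fgf4 had 6.05 and 6.97 counts per 1000 ERCC counts in CKO libraries, against 3.15 and 3.98 in Control libraries. At 60 min it had 48.3 and 67.3 in CKO, against 84.0 and 82.4 in Control. Fgf4 was thus above Control at the shortest labelling and below it at the longest. The other 5 genes were also above Control at 10 min, with no overlap, with ratios of CKO to Control means of 2.31 for Spry2, 3.32 for Spry4, 3.45 for Dusp6, 2.53 for Etv4 and 2.63 for Etv5, and 1.83 for Fgf4. In the edgeR fit with ERCC scaling all 6 genes were called higher at 10 min, against 43.1% of all identifiers and 96.2% of abundant ones, so the count says nothing particular to these genes. The shift of all identifiers was of the same order, with a median log2 fold change of 1.14, or 1.32 over abundant identifiers, against 0.87 for Fgf4, 1.21 for Spry2, 1.34 for Etv4, 1.39 for Etv5, 1.73 for Spry4 and 1.79 for Dusp6. Relative to the median of abundant identifiers Fgf4 lay below, and Spry4 and Dusp6 above, with TMM as with ERCC scaling.

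At 60 min on the spike-in scale Spry2 had 55.2 and 55.9 counts per 1000 ERCC counts in CKO libraries, against 41.1 and 39.6 in Control libraries. Spry4 had 32.1 and 46.6 in CKO and 27.3 and 28.9 in Control. Dusp6 had 13.7 and 15.9 in CKO and 10.6 and 10.3 in Control. These 3 feedback inhibitors lay above Control without overlap, at ratios of means of 1.38, 1.40 and 1.41, while Fgf4 lay below at 0.695. The share of all identifiers without such overlap was not computed, so the lack of overlap is a description only. Etv4 and Etv5 overlapped between genotypes. With ERCC scaling edgeR called 0 of the 6 genes at 60 min, against 0.0437% of all identifiers and 0.157% of abundant ones, with 2 of them having an unadjusted p under 0.05, where DESeq2 with its own scaling called 3.

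Growth on the spike-in scale between 10 and 60 min was larger in fold terms in Control cells for each of the 6 genes, as it was for the median identifier. With ERCC scaling the median log2 change was 2.01 in CKO and 3.25 in Control over all identifiers, and 2.23 in CKO and 3.48 in Control over abundant ones. Fgf4 counts per 1000 ERCC counts at 60 min were 8.88 times those at 10 min in CKO cells and 23.3 times in Control cells. For the inhibitors the same fold was 10.5 in CKO and 17.6 in Control for Spry2, 8.65 in CKO and 20.5 in Control for Spry4, and 11.2 in CKO and 27.5 in Control for Dusp6. For the ETS factors it was 3.59 in CKO and 8.79 in Control for Etv4, and 7.36 in CKO and 18.0 in Control for Etv5. In absolute terms the slopes of Fgf4 were 1.03 ± 0.173 counts per 1000 ERCC counts per min in CKO cells (SE, n = 8) and 1.61 ± 0.0680 in Control cells. Fgf4 was the gene with the lowest CKO slope relative to Control, with a log2 ratio of −0.64 (SE 0.249).

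**Figure D3:**
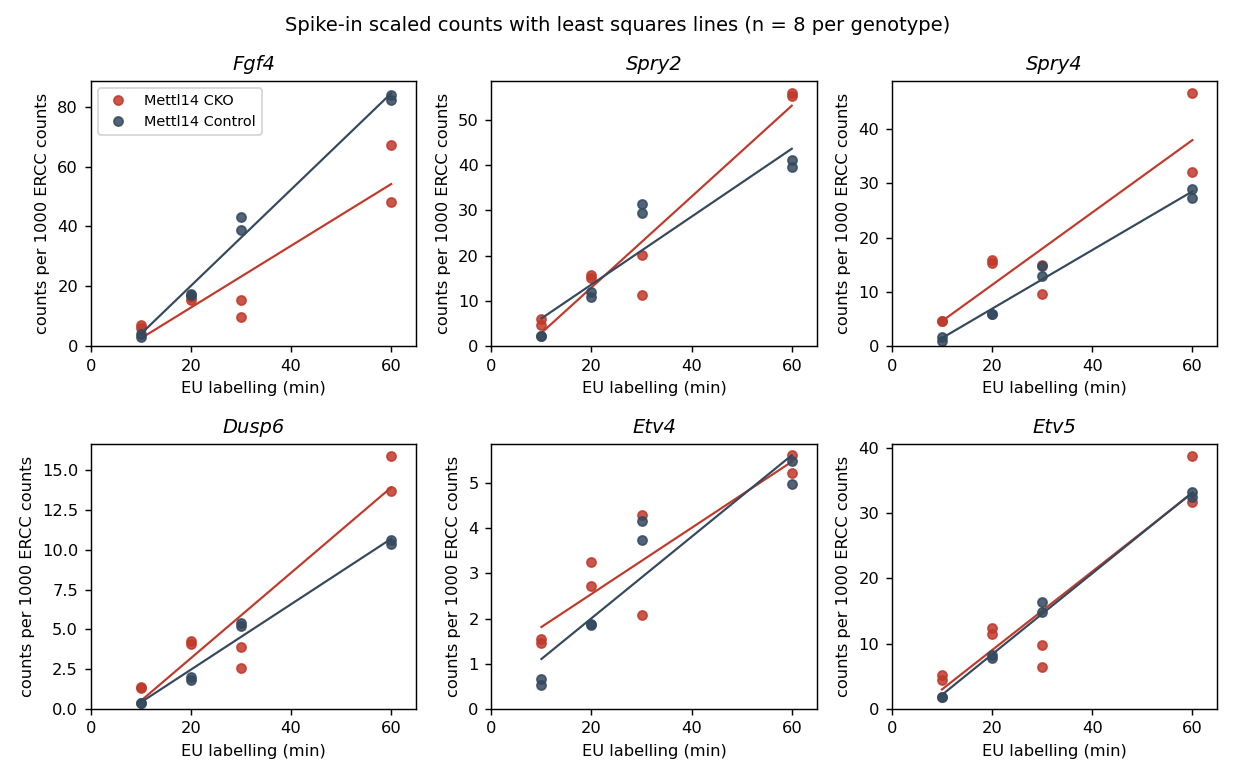
Counts per 1000 ERCC counts (y axis, from 0) against EU labelling time in minutes (x axis) for the 6 genes, with a point per library and least squares lines over the 8 libraries of each genotype, CKO in red and Control in dark blue. The Fgf4 line is shallower in CKO (1.03 per min) than in Control (1.61 per min), and the CKO points at 30 min lie below the line of their genotype for Fgf4, Spry2, Spry4, Dusp6 and Etv5.

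The slopes of Spry2 were 1.00 ± 0.104 in CKO cells and 0.750 ± 0.118 in Control cells, a log2 ratio of 0.42 (SE 0.271). For Spry4 they were 0.667 ± 0.115 in CKO and 0.540 ± 0.0247 in Control, a log2 ratio of 0.30 (SE 0.257). For Dusp6 they were 0.269 ± 0.0363 in CKO and 0.206 ± 0.0111 in Control, a log2 ratio of 0.38 (SE 0.210). The 3 inhibitor genes thus had steeper mean slopes in CKO. Etv4 had slopes of 0.0733 ± 0.0139 in CKO and 0.0903 ± 0.0138 in Control, and Etv5 had 0.603 ± 0.0975 in CKO and 0.621 ± 0.0162 in Control. Their log2 ratios were −0.30 (SE 0.352) for Etv4 and −0.04 (SE 0.236) for Etv5. No test was run on the slopes. None were computed for other identifiers, so the ratios of these genes cannot be set against a general shift. The second CKO 60 min library moved 4 of these ratios by more than their standard error: without it they were −1.05 for Fgf4, −0.11 for Spry4, 0.16 for Dusp6 and −0.33 for Etv5. Without the 30 min libraries the slopes and their ratios are the same, because 30 min is the mean EU time and carries no weight in them. Their standard errors are smaller there: those of the log2 ratios are 0.180 for Fgf4, 0.0411 for Spry2, 0.230 for Spry4, 0.0898 for Dusp6, 0.185 for Etv4 and 0.117 for Etv5.

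Ratios of counts between 2 of the genes within a library do not depend on how libraries are scaled. They were chosen with the values known and are given as a description, with no test. Spry4 counts per Fgf4 count averaged 0.702 ± 0.0662 in CKO libraries and 0.378 ± 0.0803 in Control libraries at 10 min (SD, n = 2 each). At 20 min the ratio was 0.978 ± 0.0165 in CKO and 0.343 ± 0.00457 in Control. At 30 min it was 0.983 ± 0.00987 in CKO and 0.337 ± 0.00631 in Control, and at 60 min 0.679 ± 0.0182 in CKO and 0.338 ± 0.0186 in Control. Every CKO library had more Spry4 per Fgf4 than every Control library of its EU time, the 30 min libraries included. The ratio of CKO to Control means was 1.86, 2.85, 2.92 and 2.01 at 10, 20, 30 and 60 min.

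Dusp6 counts per Fgf4 count were also higher in CKO at each EU time. They averaged 0.203 ± 0.0122 in CKO libraries and 0.108 ± 0.0124 in Control libraries at 10 min (SD, n = 2 each), and 0.261 ± 0.00111 in CKO and 0.110 ± 0.00858 in Control at 20 min. At 30 min the ratio was 0.258 ± 0.00939 in CKO and 0.130 ± 0.0139 in Control, and at 60 min 0.260 ± 0.0334 in CKO and 0.126 ± 0.000742 in Control. The ratio of Dusp6 to Fgf4 RNA counts was thus 1.88 to 2.36 times as high in CKO as in Control. The 2 Sprouty genes also shifted against each other: Spry4 per Spry2 was 0.871 ± 0.141 in CKO and 0.597 ± 0.206 in Control at 10 min, 1.01 ± 0.00158 in CKO and 0.516 ± 0.0355 in Control at 20 min, and 0.797 ± 0.0763 in CKO and 0.454 ± 0.0239 in Control at 30 min. At 60 min it was 0.708 ± 0.177 in CKO and 0.697 ± 0.0469 in Control, with overlap. Etv5 per Etv4 overlapped between genotypes at 10, 20 and 60 min and was lower in CKO at 30 min, at 2.68 ± 0.576 in CKO and 3.98 ± 0.559 in Control.

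**Figure D4:**
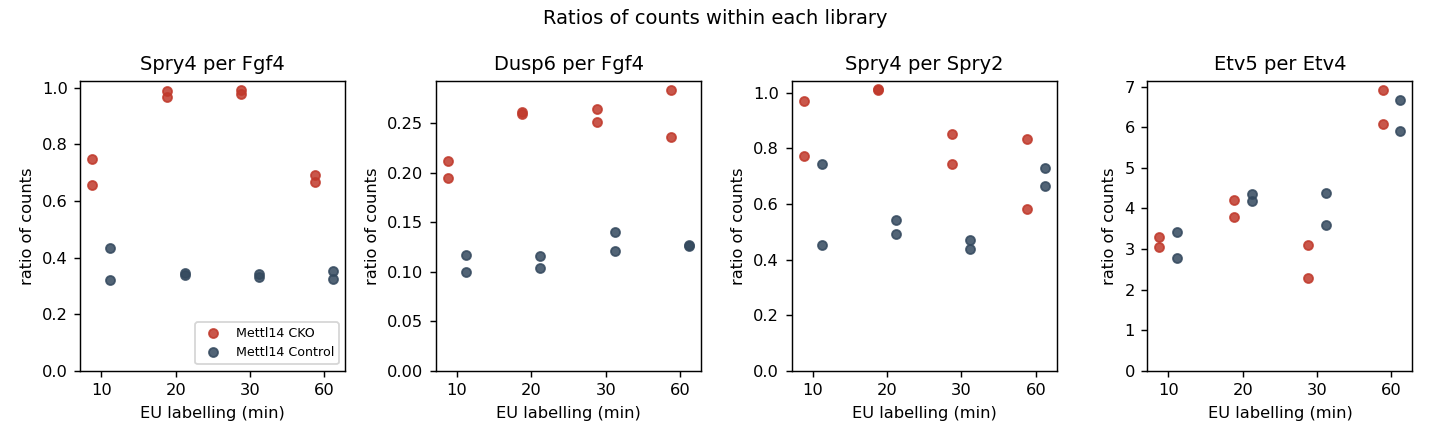
Ratio of counts of 2 genes within each library (y axis, from 0) by EU labelling time in minutes (x axis), with a point per library, CKO in red to the left of Control in dark blue. The CKO points lie above the Control points at all 4 times for Spry4 per Fgf4 (means 0.679 to 0.983 in CKO and 0.337 to 0.378 in Control) and for Dusp6 per Fgf4, and the genotypes overlap at 10, 20 and 60 min for Etv5 per Etv4.

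Pairs of these genes were compared by log2 CPM across the 16 libraries, which span both genotypes and all EU times. Spry4 and Dusp6 were the closest pair (Pearson r = 0.895), while Dusp6 and Spry2 had r = 0.852, and Fgf4 and Etv5 had r = 0.831. Over the 12 libraries without 30 min Spry4 and Dusp6 had r = 0.921. Dusp6 and Etv5 (0.955) and Spry2 and Etv5 (0.926) were closer there. Fgf4 and Spry4 were weakly related (r = 0.335, and 0.379 without 30 min). Etv4 had r of −0.21 to −0.02 with the other 5 genes, and of −0.70 to −0.12 without 30 min. These values are descriptions over libraries that differ in depth and labelling time, with no test. Among 9865 identifiers whose mean log2 CPM reached 3, the one most like Fgf4 over the 16 libraries was ENSMUSG00000044906.5 (r = 0.985), where the median r was 0.352 and 2.60% reached an r of at least 0.9. The one most like Dusp6 was ENSMUSG00000034640.9 (r = 0.963), with a median r of 0.213. The highest r was 0.971 for Spry2, 0.921 for Spry4, 0.986 for Etv5 and 0.803 for Etv4.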

How the data were processed

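Labelled RNA of 16 libraries was counted per gene identifier. The deposited counts are raw, per the file values, and were made by the authors with CASAVA, Trimmomatic 0.38, HISAT2 2.1.0, HTSeq and the mm10 build, per the submitters' processing notes, which do not give the roles of the tools. No annotation release, strand setting or counted feature is given in the sources used here. Differences were tested with edgeR 4.0.16 in R 4.3.3 (quasi-likelihood F-test, robust fit, TMM scaling of the mouse counts, filter on low counts by group). Benjamini-Hochberg adjustment ran over all 27488 identifiers tested, which hold 99.89% of the mouse counts, with a threshold of 0.05. The overall difference came from EU time plus genotype, the others from 8 group means. All 16 libraries shared one estimate of the spread, and standard errors were taken from the F statistic. The text names the 6 genes of the identifier list and, for 2 of them, the identifier with the highest correlation of log2 CPM. ERCC counts made up 0.643% to 7.97% of each library's total.

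Genes were placed by RefSeq on GRCm38.p6. The gene lists and cell type markers set for the design could not be applied without symbols and were not analysed here. Alternatives were DESeq2 1.42.0, library totals, ERCC scaling, no filter, a stricter filter (1 CPM in 8 libraries), the replicate number as a block, and fits without the 30 min or any single library. Where that leaves 1 library in a group, it is assumed to vary like the other groups, and the filter by group, rerun in each fit, is looser. Fits without the 10 or 60 min libraries were added after seeing the data. The members and lists were chosen with earlier results of these data known.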

Additional observations from a re-analysis of the deposited data

Results flagged for a closer look

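The difference between CKO and Control was not the same at all EU times in 5 of the 6 genes, by edgeR's test of that change itself over all 16 libraries, where 22.7% of all identifiers and 64.2% of abundant ones, the set that holds these genes, were called. The adjusted p was 2.73e-07 for Fgf4, whose log2 fold change lay between −1.63 at 30 min and −0.45 at 10 min. It was 2.14e-07 for Spry2, between −0.89 at 30 min and 0.42 at 60 min. It was 0.00248 for Spry4, between −0.08 at 30 min and 1.00 at 20 min, 1.65e-05 for Dusp6, between −0.64 at 30 min and 0.73 at 20 min, and 1.83e-06 for Etv5, between −0.86 at 30 min and 0.18 at 20 min. In each gene the lowest value was that of the 30 min libraries. Without them the adjusted p was 0.0201 for Spry2, which still passed, and 0.889 for Fgf4, 0.146 for Spry4, 0.421 for Dusp6 and 0.670 for Etv5, which did not. The CKO 30 min libraries held 5109162 and 5188643 mouse counts, fewer than any other library of the series.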

How the results depend on the processing

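Of 1122 recomputed values of single genes in single comparisons, 1006 kept their direction and their side of the threshold, 51 lost a call, 19 gained one and 46 changed sign. Unless the construction of a setting shows it, the cause was not tested.

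Over all EU times 2 genes were called, against 1 with ERCC scaling, 1 without the 10 min libraries, 1 without the 60 min libraries, and 1 to 2 without single libraries. Without the 10 min or the 60 min libraries the gene lost was Spry4 (adjusted p = 0.0574 and 0.0693). Dusp6 was also called by DESeq2 (0.32, adjusted p = 0.0410) and with the stricter filter (0.34, adjusted p = 0.0384). At 10 min 2 were called, against 1 with library totals, 6 with ERCC scaling and 1 to 3 without single libraries. At 20 min 3 were called, against 2 to 3 without single libraries, and DESeq2 added Etv5 (0.18, adjusted p = 0.0370). At 60 min 3 were called, against 0 with ERCC scaling (2 with an unadjusted p under 0.05, and 3 called by DESeq2) and 1 to 4 without single libraries. The change of the difference with EU time was called in 5 genes, against 1 without the 30 min libraries.

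Signs turned as follows. ERCC scaling, which puts the median of all identifiers at 1.14 at 10 min, gave log2 fold changes of 0.87 for Fgf4 and 1.21 for Spry2 at 10 min, 0.30 for Spry2 and 0.29 for Etv5 over all EU times, and, between 10 and 60 min, 1.85 for Etv4 in CKO and 3.13 in Control. Without the 30 min libraries over all other EU times Spry2 was at 0.0975 and Etv5 at 0.0876, and at 10 min Etv4 was at −0.0125. Library totals gave −0.0493 for Etv4 and −0.0046 for Etv5 at 10 min, 0.20 for Spry4 and 0.0020 for Etv4 at 30 min, and −0.0396 for Etv4 at 60 min. The stricter filter gave 0.23 for Spry4 and 0.0341 for Etv4 at 30 min and −0.0161 for Etv4 at 60 min. DESeq2 gave 0.19 for Spry4 at 30 min and −0.0304 for Etv4 at 60 min, and no filter gave −0.0375 for Etv4 at 60 min. Without single libraries Etv4 ranged over −0.0428 to 0.0512 over all EU times, −0.122 to 0.165 at 10 min and −0.0970 to 0.0284 at 60 min, Etv5 over −0.0190 to 0.0570 at 60 min, Spry2 over −0.0401 to 0.0878 at 20 min and Spry4 over −0.115 to 0.0178 at 30 min. None of the values with TMM scaling and all libraries that these settings turned was called, except Fgf4 at 10 min.

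With the replicate number as a block the counts were 2 over all EU times, 3, 3, 4 and 3 at 10, 20, 30 and 60 min, and 5 for each of the other comparisons. Spry4 was then called at 10 min (0.44, adjusted p = 0.00093) and 60 min (0.42, adjusted p = 0.0035), and Dusp6 at 60 min was not (0.45, adjusted p = 0.0581). Deviations of same-numbered CKO and Control libraries at the same EU time correlated at −0.00645 to 0.0427 over 5721 abundant identifiers. Sharing between same-numbered libraries of different EU times was not tested. Without single libraries the log2 ratio of spike-in slopes ranged over −1.05 to −0.49 for Fgf4, 0.28 to 0.50 for Spry2, −0.11 to 0.53 for Spry4, 0.16 to 0.43 for Dusp6, −0.49 to −0.21 for Etv4 and −0.33 to 0.02 for Etv5.

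Precision is limited by 2 libraries per group and, at 30 min, by CKO libraries with as few as 225 counts of Etv4.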
